A study of Mus musculus with 12 samples.

Results

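The 8 genes described here, Neurod1, Zic1, Hmx1, Pou4f1, Tubb3, Stmn2, Elavl3 and Elavl4, are known for their roles in nerve cells, and they were measured in sorted cells of the embryonic mouse gonad. They were taken by name, with every probe set (a group of short array probes for a transcript) annotated to a listed gene alone. That gave 16 probe sets of 45037 tested, and 8 of the 18193 genes with a probe set of their own. Neurod1, Zic1, Hmx1, Pou4f1 and Tubb3 were chosen by their high levels at 10.5 days post coitum (dpc) in these same arrays, so their differences from that age are a description with no test. Stmn2, Elavl3 and Elavl4 were not listed for a level and were tested in every comparison. All members were chosen with earlier results of these data known, so these tests are not free of selection either.

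The study followed somatic cells of the mouse gonad over time and compared the sexes. All 12 samples came from embryos with an enhanced green fluorescent protein transgene under the Sf1 (Nr5a1) promoter, and green cells were collected by fluorescence-activated cell sorting. There were 4 groups of 3 arrays, namely females at 10.5 dpc, males at 10.5 dpc, females at 11.5 dpc and males at 11.5 dpc, with no treatment named. The RNA was amplified in 2 rounds, labelled with biotin and read on Affymetrix arrays. The labels give neither the strain nor the number of embryos behind a sample, and they do not say that the arrays of a group came from separate embryos or pools. A p-value here thus weighs a difference against the spread of these arrays alone, and that spread may be technical. The promoter of the transgene selects cells by Sf1 activity, which as background is also found in the adrenal primordium, the pituitary and the hypothalamus.

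Neuronal differentiation runs through a chain of transcription factors. Proneural factors of the basic helix-loop-helix kind start it, and factors such as Neurod1 carry it on. Homeodomain and zinc finger factors such as Pou4f1, Hmx1 and Zic1 give neurons and their precursors a regional or sensory identity. Late in the chain come proteins of the axon and growth cone, such as the tubulin Tubb3 and the microtubule regulator Stmn2, and the RNA-binding proteins of the Elavl family, which stabilise and splice neuronal messages. The somatic gonad is not a neural tissue, and at these ages it consists of the coelomic epithelium and the supporting and interstitial precursors that derive from it, with germ cells and blood vessels among them.

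RefSeq promoter windows of assembly GRCm38.p6 were matched by symbol for 7 of the 8 genes, all except Stmn2, and 10 windows were found because Elavl4 had several starts. Each window holds the 250 bases before a transcript start. The windows of Neurod1, Pou4f1, Elavl3 and Tubb3 are printed because these genes cover the range of patterns described below, from a late fall in both sexes to a level high in a single group. Capitals mark E-boxes, the CANNTG core that basic helix-loop-helix factors such as Neurod1 bind, and the TATA matches TATAAA and TATATAA. The windows are chr2:79456637-79456886 on the minus strand for Neurod1, chr14:104468000-104468249 on the minus strand for Pou4f1, chr9:22052024-22052273 on the minus strand for Elavl3 and chr8:123411303-123411552 on the plus strand for Tubb3.
Neurod1: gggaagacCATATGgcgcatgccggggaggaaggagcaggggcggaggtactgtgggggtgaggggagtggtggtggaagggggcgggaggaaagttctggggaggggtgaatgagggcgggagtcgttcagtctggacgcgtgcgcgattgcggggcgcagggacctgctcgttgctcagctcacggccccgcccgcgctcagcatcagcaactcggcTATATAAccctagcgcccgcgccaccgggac
Pou4f1: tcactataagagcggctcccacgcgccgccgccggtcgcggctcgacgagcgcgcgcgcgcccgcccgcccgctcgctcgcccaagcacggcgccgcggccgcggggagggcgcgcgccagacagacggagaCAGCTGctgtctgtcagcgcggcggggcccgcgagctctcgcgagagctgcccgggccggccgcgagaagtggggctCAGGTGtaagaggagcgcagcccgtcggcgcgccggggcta
Elavl3: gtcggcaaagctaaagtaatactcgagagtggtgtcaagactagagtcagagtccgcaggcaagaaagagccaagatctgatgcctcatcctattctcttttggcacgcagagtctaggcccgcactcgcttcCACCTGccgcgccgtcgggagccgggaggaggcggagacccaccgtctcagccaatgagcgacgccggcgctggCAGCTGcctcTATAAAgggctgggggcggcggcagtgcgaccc
Tubb3: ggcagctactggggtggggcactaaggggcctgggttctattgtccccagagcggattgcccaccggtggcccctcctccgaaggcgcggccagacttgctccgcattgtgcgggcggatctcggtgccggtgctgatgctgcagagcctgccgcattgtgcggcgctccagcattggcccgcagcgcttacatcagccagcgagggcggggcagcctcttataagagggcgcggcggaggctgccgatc

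The Neurod1 window held an E-box at -242 and TATATAA at -31, the Pou4f1 window had E-boxes at -118 and -41, and the Elavl3 window had E-boxes at -117 and -43 and TATAAA at -33. No E-box was found in the Tubb3 window. Both strands were searched, and positions count back from the transcript start to the first base of the match. E-boxes were present in 8 of the 10 windows and in 6 of the 7 genes, while 66.2% of all 32851 RefSeq windows of the same length held this short motif. CAGATG, an E-box of the kind bound by NeuroD factors, was in 3 of the 10 windows against 14.4% of all. These 3 windows all belong to 1 gene, Elavl4, so they do not count as separate genes. CAGCTG was in 4 of the 10, those of Pou4f1, Elavl3 and Elavl4, against 13% of all. Both motifs are also CANNTG matches, and 2 of the Elavl4 windows that hold them overlap each other. The words CAAGTG, GGGTGGTC and ATAATTAAT, written for Hmx, Zic and Pou4f factors, and the left part TTCAGCACC and the right part of the RE1 element, bound by the repressor REST, were in none of the 10 windows. They were in 11.6%, 0.703%, 0.259%, 0.301% and 0.0974% of all windows. The 10 windows ranged from 44% to 78% in GC content, against a median of 52.4% over all windows. A match is a description of letters and not of binding.

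**Figure D1:**
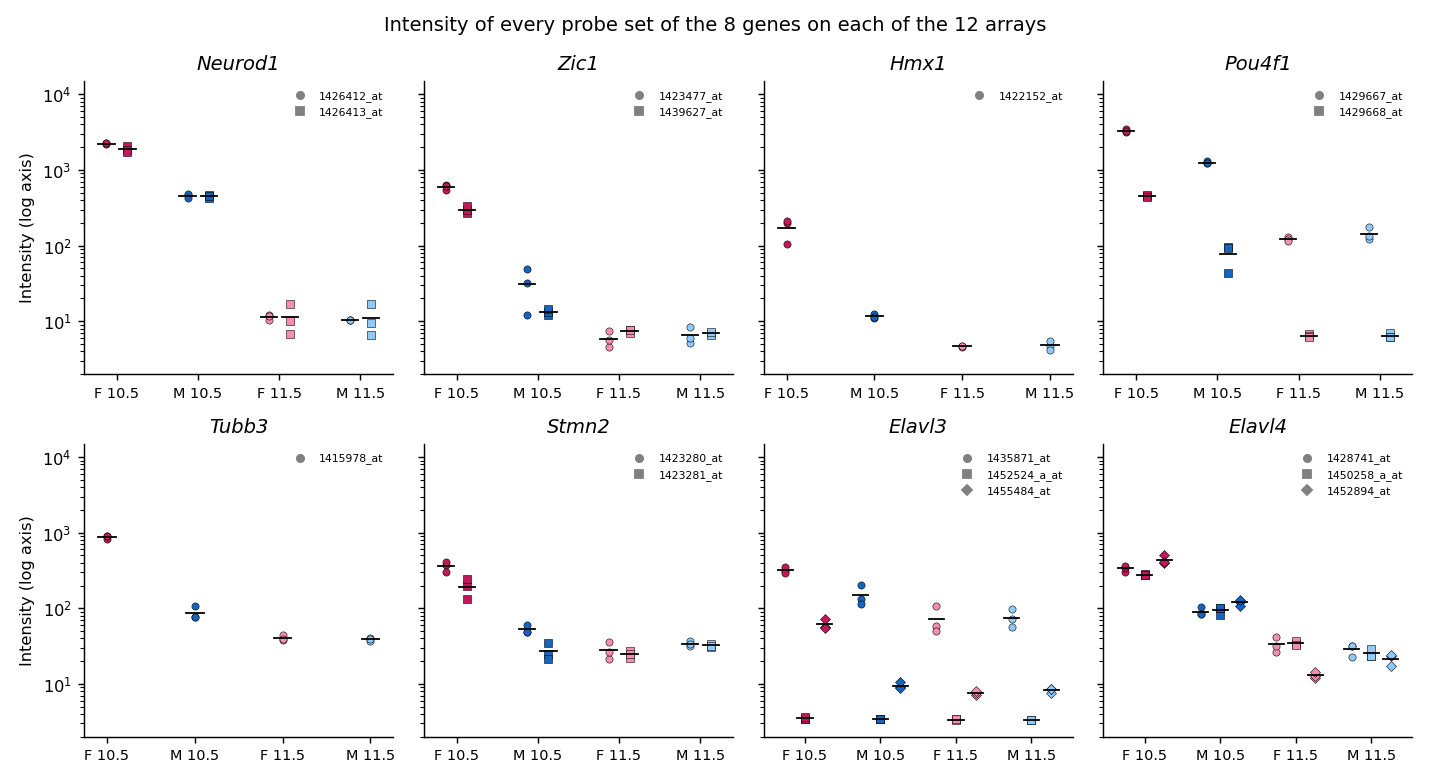
Intensity (linear units on a log axis) of all 16 probe sets on each of the 12 arrays, in 1 panel per gene, with F and M for females and males at 10.5 and 11.5 dpc; each point is an array, each shape a probe set, and each line the mean of 3 arrays. Females at 10.5 dpc lie above males at 10.5 dpc in every array in 15 of the 16 probe sets, against 18.8% of all probe sets. This count includes the genes listed for their 10.5 dpc levels, so nothing is read from it. Neurod1 and Pou4f1 keep a high level in males at 10.5 dpc.

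The values are intensities from the robust multi-array average (RMA), a linear scale here, and each probe set is compared only with itself. In such bulk samples, fewer cells of a type and less RNA per cell cannot be told apart. In 15 of the 16 probe sets every array of females at 10.5 dpc lay above every array of males at 10.5 dpc, which held for 18.8% of all probe sets. The same 15 of 16 had females at 10.5 dpc above females at 11.5 dpc in every array, against 23.6% of all. Males at 10.5 dpc lay above males at 11.5 dpc in every array in 15 of 16, where the share of all probe sets was already 48.6%. These counts include the genes listed for their 10.5 dpc levels, so nothing is read from them.

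Neurod1, the basic helix-loop-helix factor of differentiating neurons and endocrine cells, was high at 10.5 dpc in both sexes. Probe set 1426412_at read 2256, 2202 and 2259 in females and 470, 482 and 423 in males at 10.5 dpc. It read 11.9, 10.3 and 11.8 in females and 10.4, 10.3 and 10.5 in males at 11.5 dpc. The 3 levels were far apart, and only the sexes at 11.5 dpc overlapped. Female means were 4.88-fold above male means at 10.5 dpc, and the mean then fell 198-fold in females and 44.2-fold in males. The second probe set, 1426413_at, gave ratios of 4.20, 166 and 40.8 for the same comparisons. On the log2(value + 1) scale the change was -7.51 ± 0.06 (SE) and -7.33 ± 0.32 in females, and -5.33 ± 0.06 and -5.32 ± 0.32 in males, for the 2 probe sets.

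Pou4f1 (Brn3a), a POU-domain factor of sensory neurons, was high in males as well as females at 10.5 dpc. Probe set 1429667_at read 3144, 3463 and 3321 in females and 1298, 1219 and 1223 in males at 10.5 dpc. At 11.5 dpc it read 129, 121 and 116 in females and 124, 134 and 175 in males, and again only the sexes at 11.5 dpc overlapped. The fall of the mean was 27.1-fold in females and 8.63-fold in males. Probe set 1429668_at of the same gene read 437 to 465, 43.9 to 97.1, 6.22 to 6.78 and 6.12 to 7.02 in females and males at 10.5 dpc and females and males at 11.5 dpc. Its ratios were 5.79 between the sexes at 10.5 dpc, 70.1 over time in females and 12.2 over time in males.

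Zic1, a zinc finger factor of the dorsal neural tube, was high in a single group. Probe set 1423477_at read 630, 549 and 615 in females at 10.5 dpc and 48.8, 31.9 and 12.2 in males. It read 4.53, 7.47 and 5.73 in females and 8.35, 5.11 and 5.998 in males at 11.5 dpc. Males at 10.5 dpc spread widely, from 12.2 to 48.8, and still lay above both 11.5 dpc groups. The female mean was 19.3-fold above the male mean at 10.5 dpc, and the fall over time was 101-fold in females and 4.77-fold in males. Probe set 1439627_at gave 22.4, 40.3 and 1.93 for these ratios, with males at 10.5 dpc between 12.1 and 14.5.

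Hmx1, a homeobox factor of sensory ganglia, eye and ear, had its high level in females at 10.5 dpc. Its only probe set, 1422152_at, read 199, 105 and 210 in females and 10.9, 12.5 and 11.4 in males at 10.5 dpc. At 11.5 dpc it read 4.54, 4.76 and 4.72 in females and 4.76, 5.52 and 4.18 in males. The second female array at 10.5 dpc was lower than the other females of that age and still lay above every male array. Ratios were 14.8 between the sexes at 10.5 dpc, 36.7 over time in females and 2.41 over time in males.

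Tubb3, the class III beta-tubulin of young neurons, read 826, 906 and 905 in females and 77.7, 75.9 and 108 in males at 10.5 dpc (1415978_at). At 11.5 dpc it read 44.5, 38.4 and 39.4 in females and 37.0, 40.6 and 39.9 in males, close to each other in the 6 arrays. The female mean was 10.1-fold above the male mean at 10.5 dpc, and the fall over time was 21.6-fold in females and 2.22-fold in males. On the log2 scale the difference between the sexes at 10.5 dpc (male minus female) was -3.34 ± 0.12 (SE).

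Stmn2 (SCG10), a stathmin that regulates microtubules in growth cones, was tested because the rule did not list it for its level. Probe set 1423280_at read 375, 406 and 303 in females and 48.4, 49.3 and 60.2 in males at 10.5 dpc. It read 21.2, 35.7 and 26.6 in females and 32.0, 37.2 and 33.6 in males at 11.5 dpc. Probe set 1423281_at read 195, 242 and 135 in females at 10.5 dpc, and then 34.7, 24.8 and 21.7, 22.3, 27.0 and 25.04, and 34.0, 30.6 and 32.2 in males at 10.5 dpc, females at 11.5 dpc and males at 11.5 dpc. Females at 10.5 dpc were clear of the other 9 arrays in both probe sets, and in 1423281_at the other 3 groups lay close together. Stmn2 was lower in males at 10.5 dpc by -2.75 ± 0.18 (SE; limma adjusted p = 6.48e-07) and by -2.76 ± 0.21 (adjusted p = 2.24e-06). In females it fell over time, with changes of -3.67 ± 0.18 (adjusted p = 3.48e-08) and -2.86 ± 0.21 (adjusted p = 9.01e-07). In males the change was -0.60 ± 0.18 (adjusted p = 0.017) in 1423280_at and 0.27 ± 0.21 (adjusted p = 0.29) in 1423281_at. The male call of 1423280_at ended without the third male array at 10.5 dpc (adjusted p = 0.0663) or the first male array at 11.5 dpc (adjusted p = 0.0559), with changes of -0.50 and -0.55.

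Elavl4 (HuD), a neuronal RNA-binding protein, kept an intermediate level in males at 10.5 dpc in each of its 3 probe sets. Probe set 1452894_at read 501, 399 and 404 in females and 123, 107 and 128 in males at 10.5 dpc. It read 12.1, 12.9 and 14.6 in females and 23.1, 17.3 and 23.9 in males at 11.5 dpc, so that all 4 groups were apart. The female mean was 3.64-fold above the male mean at 10.5 dpc, and the fall was 33.0-fold in females and 5.57-fold in males. In the other probe sets, 1428741_at and 1450258_a_at, females at 10.5 dpc read 306 to 358 and 273 to 283, males at 10.5 dpc 82.9 to 103 and 82.3 to 102, and the 11.5 dpc arrays 23.0 to 42.1 and 23.6 to 37.5. Elavl4 was lower in males at 10.5 dpc in 1428741_at (-1.90 ± 0.17, adjusted p = 7.79e-06), 1450258_a_at (-1.54 ± 0.10, adjusted p = 6e-07) and 1452894_at (-1.85 ± 0.13, adjusted p = 1.52e-06). It fell over time in females, with changes of -3.31 ± 0.17, -2.96 ± 0.10 and -4.94 ± 0.13 in the same order (adjusted p = 6.11e-08, 2.77e-09 and 8.55e-10), and in males, with -1.62 ± 0.17, -1.86 ± 0.10 and -2.43 ± 0.13 (adjusted p = 1.72e-05, 8.61e-08 and 1.16e-07).

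Elavl3 (HuC), a close relative of Elavl4, gave a different picture in each of its 3 probe sets. Probe set 1435871_at read 311, 351 and 290 in females and 134, 203 and 114 in males at 10.5 dpc. It read 107, 58.0 and 49.8 in females and 98.6, 71.7 and 56.2 in males at 11.5 dpc, so that the ages did not overlap within a sex, with the lowest and highest arrays of the ages at 114 and 98.6 in males and at 290 and 107 in females. Probe set 1455484_at read 57.2, 73.0 and 54.9 in females at 10.5 dpc and between 7.25 and 10.5 in the other 9 arrays. Probe set 1452524_a_at lay between 3.31 and 3.69 on all 12 arrays. Elavl3 was lower in males at 10.5 dpc by -1.11 ± 0.31 in 1435871_at (adjusted p = 0.0166) and by -2.57 ± 0.10 in 1455484_at (adjusted p = 3.26e-08). In females it fell, with changes of -2.21 ± 0.31 (adjusted p = 0.000137) and -2.84 ± 0.10 (adjusted p = 4.7e-09). In males the change was -0.98 ± 0.31 in 1435871_at (adjusted p = 0.0241) and -0.18 ± 0.10 in 1455484_at (adjusted p = 0.174). In 1452524_a_at no comparison passed, with an adjusted p = 0.612 between the sexes at 10.5 dpc.

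For Elavl3 1435871_at, leaving out single arrays ended 2 of the 3 calls above while the difference kept its direction, and the call in females over time stayed. Its sex difference at 10.5 dpc did not pass without the second female array (-1.03, adjusted p = 0.0548), the first male array (-1.05, adjusted p = 0.0542) or the third male array (-0.93, adjusted p = 0.0663) of that age. Its male age change did not pass without the second male array at 10.5 dpc (-0.74, adjusted p = 0.0917), or without the second (-0.96, adjusted p = 0.0626) or the third (-0.79, adjusted p = 0.085) male array at 11.5 dpc.

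**Figure D2:**
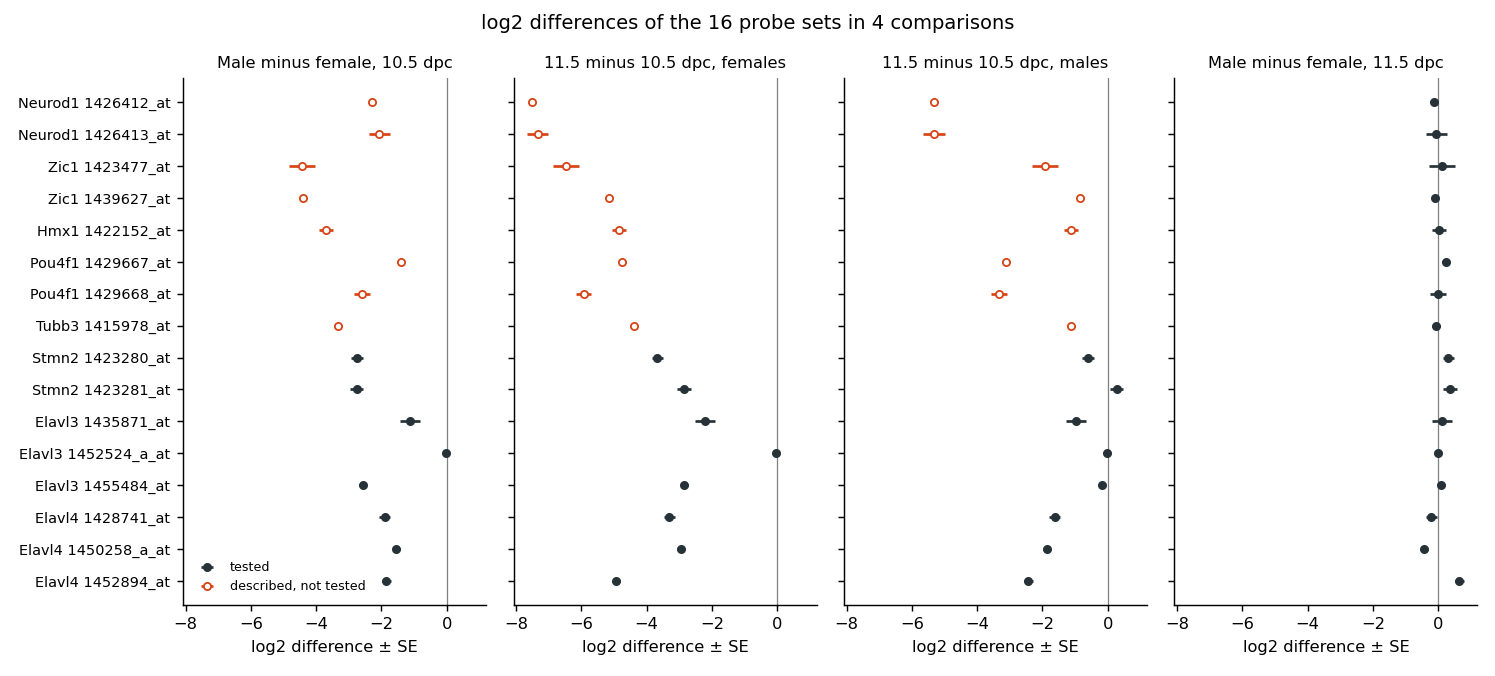
Difference on the log2(value + 1) scale with its standard error for the 16 probe sets, in panels for the sex difference (male minus female) at 10.5 dpc, the age change (11.5 minus 10.5 dpc) in each sex, and the sex difference at 11.5 dpc. Filled points were tested and open points are a description of genes listed for their 10.5 dpc level; 14 of the 16 probe sets did not pass at 11.5 dpc.

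Over the 8 probe sets of Stmn2, Elavl3 and Elavl4, 7 were lower in males at 10.5 dpc (adjusted p under 0.05), where 16.3% of all probe sets were called lower and 17.9% higher. Their median log2 difference was -1.88, against 0.0178 over all probe sets. Over time, 7 of the 8 fell in females, where 20.8% of all probe sets were called lower and 21% higher, and the median was -2.91 against -0.00532. In males 5 of the 8 fell, where 26.5% of all were called lower and 20.2% higher, and the median was -0.79 against -0.0529. The rise and fall of calls over all probe sets depends on the scaling. With each array centred on its median, 31.9% of the calls over time in females were higher in place of 50.3%, and 27.9% in place of 43.3% in males. With that centring 39.3% of all probe sets were called lower in females and 48.9% in males, beside 8 and 6 of the 8 probe sets of these genes, the flat 1452524_a_at of Elavl3 among them. No called member changed direction there. The comparisons between the sexes at 10.5 dpc and over time in females share the female arrays at 10.5 dpc, so their values are given side by side and not as independent results. These genes were also chosen with earlier results of these data known, so the counts do not come from an unselected set.

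The change over time differed between the sexes in 6 of these 8 probe sets, with the male change above the female change in all 6 (14.6% of all probe sets were called in that direction and 13.4% in the other). This quantity equals the sex difference at 11.5 dpc minus that at 10.5 dpc. For Stmn2 1423280_at these were 0.318 and -2.75, so it largely restates the difference at 10.5 dpc and is not a separate result. The difference of changes, male minus female, was 3.07 ± 0.25 (adjusted p = 9.96e-06) and 3.13 ± 0.29 (adjusted p = 2.79e-05) for Stmn2. For Elavl4 it was 1.69 ± 0.24 (adjusted p = 0.000424) in 1428741_at, 1.10 ± 0.14 (adjusted p = 0.000171) in 1450258_a_at and 2.50 ± 0.19 (adjusted p = 6.19e-06) in 1452894_at. For Elavl3 it was 2.67 ± 0.14 (adjusted p = 8.31e-07) in 1455484_at and 1.23 ± 0.43 (adjusted p = 0.0614) in 1435871_at. The last passed when any of 3 arrays was left out, namely the second male array at 10.5 dpc (adjusted p = 0.0305), the first female array at 11.5 dpc (adjusted p = 0.0107) or the third male array at 11.5 dpc (adjusted p = 0.0456).

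**Figure D3:**
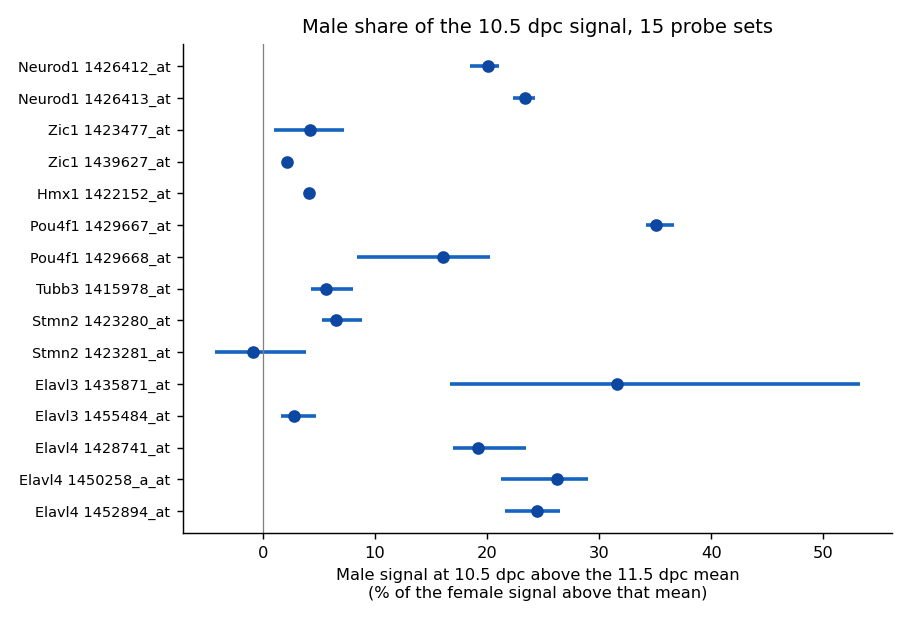
Male signal at 10.5 dpc above the mean of the 6 arrays at 11.5 dpc, as a percentage of the female signal above the same mean, for 15 probe sets; points are means of 3 male arrays and bars run from the lowest to the highest male array. Pou4f1, Neurod1 and Elavl4 lie between 16.1% and 35.1%, and Zic1, Hmx1, Tubb3 and Stmn2 lie at 6.53% or below.

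The genes split by how much of the female 10.5 dpc signal the males showed at that age. This share was taken as the male level above the mean of the 6 arrays at 11.5 dpc, in percent of the female level above that mean, for the 15 probe sets other than the flat 1452524_a_at of Elavl3, which was left out after its values were seen. It was 20.1% (18.5% to 21.1% over the 3 male arrays) and 23.4% (22.3% to 24.3%) for Neurod1. It was 35.1% (34.2% to 36.7%) and 16.1% (8.38% to 20.3%) for Pou4f1, and 19.2%, 26.2% and 24.5% for Elavl4. In contrast it was 4.18% (1.01% to 7.21%) and 2.11% for Zic1, 4.12% for Hmx1, 5.61% for Tubb3, and 6.53% and -0.93% (-4.25% to 3.80%) for Stmn2. Elavl3 fell on both sides, with 31.6% (16.7% to 53.3%) in 1435871_at and 2.81% in 1455484_at. With the 11.5 dpc level of each sex as its own baseline, all 15 values stayed within the spread of the male arrays. This split is a description, since most of these genes were listed for the levels it uses.

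The sexes were close at 11.5 dpc, where all 16 probe sets could be tested. Only 2 passed, 1 in each direction, against 17.7% of all probe sets called higher in males and 16.7% called lower. Both belong to Elavl4 and they disagree. In 1452894_at females read 12.1, 12.9 and 14.6 and males 23.1, 17.3 and 23.9, a difference of 0.65 ± 0.13 (adjusted p = 0.00288). In 1450258_a_at females read 33.7, 37.5 and 32.8 and males 23.6, 28.9 and 23.6, a difference of -0.44 ± 0.10 (adjusted p = 0.00478). The third probe set of Elavl4, 1428741_at, was at -0.21 ± 0.17 (adjusted p = 0.379), so no direction can be given for the gene. The other probe sets had adjusted p from 0.132 to 0.981, which does not show that they were equal. Both Elavl4 calls held with any single array left out, but some probe sets that did not pass came to pass that way. Without the second female array at 11.5 dpc, Stmn2 1423280_at passed as higher (adjusted p = 0.028) and Neurod1 1426412_at as lower in males (adjusted p = 0.024), and without the first male array at 11.5 dpc Pou4f1 1429667_at passed as higher (adjusted p = 0.0319).

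The female mean at 11.5 dpc was between 4.43-fold (Elavl3 1435871_at) and 198-fold (Neurod1 1426412_at) lower than at 10.5 dpc in the 15 probe sets other than the flat 1452524_a_at. In males, Stmn2 1423281_at and Elavl3 1455484_at did not pass as lower at the later age. Both were already low in males at 10.5 dpc, at 21.7 to 34.7 and 8.83 to 10.5. At 11.5 dpc Pou4f1 1429667_at still read 116 to 175 over both sexes, and Elavl3 1435871_at 49.8 to 107. The working name of the group, genes that vanish by 11.5 dpc, thus did not hold for every probe set.

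Relatives of the 8 genes were measured for 19 family members. Of these, 8 were lower and 0 higher in males at 10.5 dpc (22.8% of all genes were called lower and 17.5% higher), and 9 fell and 0 rose over time in females (27% lower and 22.4% higher over all genes). In males over time 6 fell and 0 rose, against 29.7% and 23.3% of all genes. Neurog2, a proneural factor that acts ahead of Neurod1, had means of 43.7 ± 10.1 (SD) in females against 9.35 ± 0.86 in males at 10.5 dpc, and 8.32 in females at 11.5 dpc. It was lower in males at 10.5 dpc by -2.09 ± 0.13 (SE; adjusted p = 7.11e-07) and changed in females by -2.24 ± 0.13 (adjusted p = 2e-07). The other NeuroD genes passed neither between the sexes at 10.5 dpc nor over time in females, with Neurod2 at 0.056 ± 0.047, Neurod4 at 0.063 ± 0.058 and Neurod6 at 0.024 ± 0.043 between the sexes. They read low on all 12 arrays, at 24.2 to 29.1, 14.9 to 19.5 and 6.38 to 7.3, where array medians ran from 41.06 to 43.74. A lack of change in such dim probe sets says little about the genes.

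The stathmins and Elavl genes went the same way as their relatives. Stmn1, the widely expressed stathmin, was lower in males at 10.5 dpc by -0.80 ± 0.06 (adjusted p = 3.01e-06), Stmn3 by -1.39 ± 0.21 (adjusted p = 0.000311) and Stmn4 by -1.21 ± 0.06 (adjusted p = 1.28e-07). All of them fell over time in females, with changes of -1.17, -1.49 and -1.23. Elavl1, the member found in most tissues, was lower in males by -0.50 ± 0.03 (adjusted p = 1.25e-06), and Elavl2 by -0.93 ± 0.08 (adjusted p = 6.28e-06). Both fell in females, with changes of -0.60 and -1.85.

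Most relatives of the transcription factors did not pass. Zic5 was lower in males at 10.5 dpc (-0.74 ± 0.22, adjusted p = 0.0219), while Zic2 (-0.029 ± 0.036) and Zic4 (0.12 ± 0.06) did not pass, nor did Hmx2 (0.004 ± 0.023), Hmx3 (0.013 ± 0.024) and Pou4f3 (0.024 ± 0.0998). Zic5 was dim as well, with means of 25.9 ± 11.6 (SD) in females and 14.2 ± 0.19 in males at 10.5 dpc. The Zic, Hmx and Pou4f relatives that did not pass were dim on all 12 arrays. Hmx2 read 2.94 to 3.04, Zic2 5.15 to 5.94, Hmx3 6.41 to 6.67, Pou4f3 7.66 to 11.2 and Zic4 13.0 to 17.5. The 25th percentile of an array was 8.228 to 8.948. Their small differences thus do not show that these genes were expressed and unchanged. Among the tubulins Tubb2b was lower by -0.31 ± 0.07 (adjusted p = 0.00664), and Tubb2a stood at -0.50 ± 0.21 (adjusted p = 0.1).

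**Figure D4:**
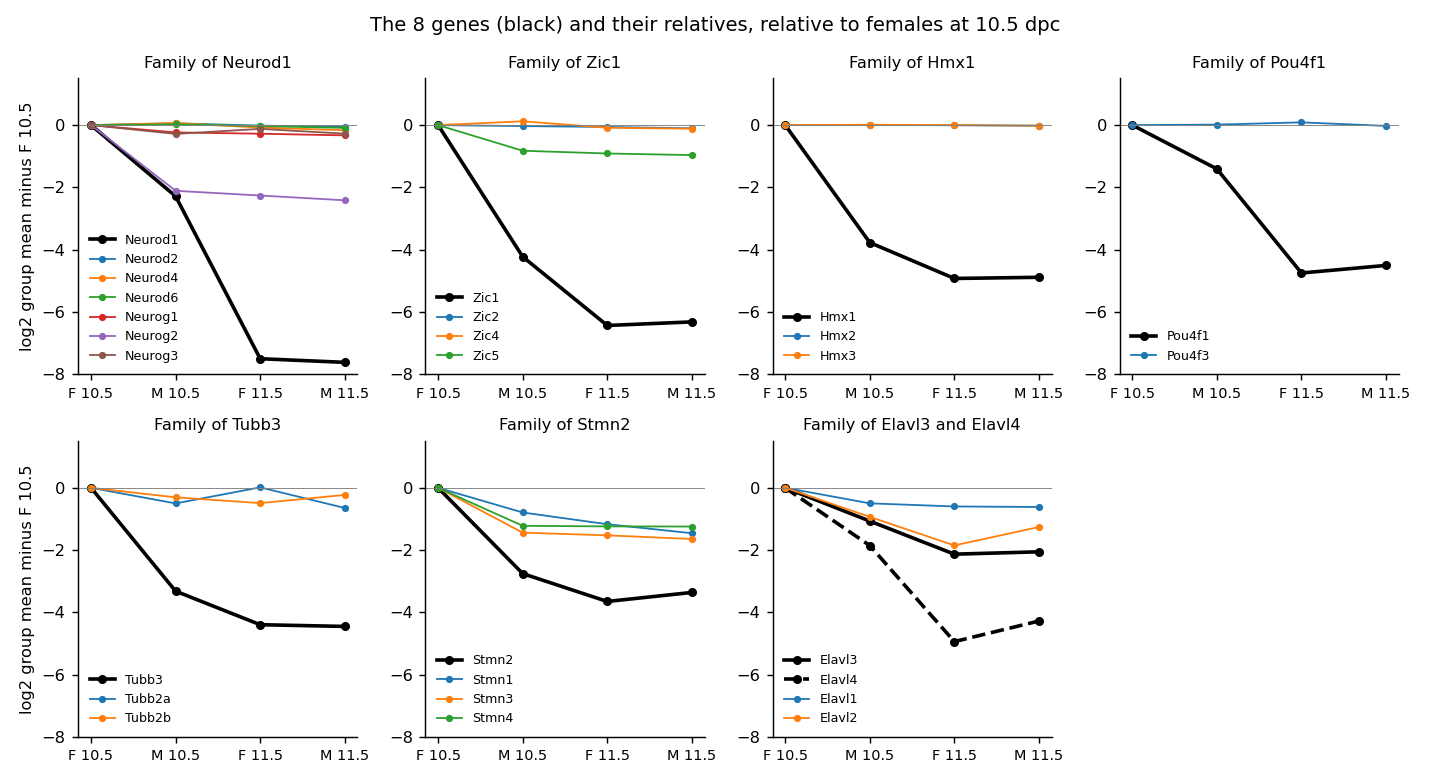
Group mean relative to females at 10.5 dpc, on the log2(value + 1) scale, for the brightest probe set of each of the 8 genes (black) and of 19 relatives (colours), with the groups F 10.5, M 10.5, F 11.5 and M 11.5 on the horizontal axis; lines only join the points of a gene. Neurog2, the stathmins and Elavl2 go down beside their relatives, and Zic2, Zic4, Hmx2, Hmx3 and Pou4f3 stay near 0. These flat genes read low in every group, with Zic4 the highest at 13.0 to 17.5.

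Neuronal genes were also counted in 5 lists that do not hold the 8 members, 93 genes in all with a probe set of their own. These lists include the relatives described above other than the Zic genes. The counts of the lists and of the relatives are thus not separate results. In males at 10.5 dpc, 36 of the 93 were lower and 9 higher than in females, 15 and 1 of them by at least 2-fold (3.13% and 1.43% of all genes). That is 38.7% lower, against 22.8% of all genes, and the median difference was -0.17 against 0.00977. Over time in females 40 fell and 15 rose (43% lower against 27% of all genes), and in males 30 fell and 16 rose (32.3% against 29.7%). At 11.5 dpc 18 were lower and 14 higher in males (over all genes 20.9% were lower and 19.1% higher). A list's count is a description of these libraries, and no list was set apart by a test.

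Among 23 proneural and neuronal differentiation factors, 10 were lower and 1 higher in males at 10.5 dpc (22.8% and 17.5% of all genes). Over time in females 12 fell and 1 rose (27% and 22.4% of all genes). Nhlh2, a basic helix-loop-helix factor, had means of 193, 39.6, 9.35 and 9.60 in females and males at 10.5 dpc and females and males at 11.5 dpc. It was lower in males at 10.5 dpc by -2.27 ± 0.11 (adjusted p = 9.55e-08), with changes over time of -4.23 ± 0.11 in females (adjusted p = 6.4e-10) and -1.93 ± 0.11 in males (adjusted p = 1.44e-07). St18, a zinc finger factor, and Insm1, a factor of neuronal and endocrine precursors, were lower in males at 10.5 dpc by -2.29 ± 0.19 and -1.70 ± 0.11. Ebf3 went the other way in males over time, with a rise of 1.27 ± 0.10 (adjusted p = 1.84e-06).

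Among 24 genes of the neuronal cytoskeleton and growth cone, 13 were lower and 3 higher in males at 10.5 dpc (22.8% and 17.5% of all genes). Over time in females 16 fell and 2 rose (27% and 22.4% of all genes). The neurofilament genes Nefm and Nefl were lower in males at 10.5 dpc by -2.33 ± 0.06 (adjusted p = 3.56e-09) and -2.04 ± 0.05 (adjusted p = 3.59e-09), and Gap43, a growth cone protein, by -2.08 ± 0.17 (adjusted p = 3.85e-06). Dcx, a microtubule protein of migrating neurons, fell over time, with changes of -3.09 ± 0.27 in females and -2.10 ± 0.27 in males. Map2, a microtubule protein of dendrites, averaged 117 ± 32.8 (SD) and 79.8 ± 10.8 in females and males at 10.5 dpc, then 207 ± 20.9 and 125 ± 16.9 a day later, so it did not share the order of the 8 genes.

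Among 13 neuronal RNA-binding proteins, 4 were lower and 2 higher in males at 10.5 dpc (22.8% and 17.5% of all genes), and 6 fell and 2 rose over time in females (27% and 22.4% of all genes). The number called at 10.5 dpc went from 6 to 3 when the probe sets of a gene were averaged. Ptbp2, a splicing regulator of neurons, fell, with changes of -2.17 ± 0.07 in females (adjusted p = 3.68e-09) and -1.61 ± 0.07 in males (adjusted p = 3.73e-08). Its means were 4560, 3460, 1020 and 1130 in the 4 groups.

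Of 15 genes of sensory neurons and ganglia, 3 were lower and 1 higher in males at 10.5 dpc (22.8% and 17.5% of all genes). Over time in females 3 fell and 3 rose (27% and 22.4% of all genes), so this list was not lower more often than all genes. Isl1, a LIM-homeodomain factor of sensory and motor neurons, averaged 2920 ± 221 (SD) in females against 617 ± 2.42 in males at 10.5 dpc, then 326 ± 17.1 and 325 ± 12.4 a day later. It was lower in males at 10.5 dpc by -2.24 ± 0.06 (SE; adjusted p = 2.96e-09). Piezo2, a mechanically gated channel, rose by 2.37 ± 0.15 in females and 2.42 ± 0.15 in males over time, and the neurotrophin receptor genes Ntrk2 and Ntrk3 rose as well. Among 18 genes of synaptic and secretory vesicles, 6 were lower and 2 higher in males at 10.5 dpc (22.8% and 17.5% of all genes). Of these 18, 7 rose and 3 fell in females over time (22.4% and 27% of all genes). Scg3, a secretory granule protein, fell by 2.06 ± 0.09 in females (adjusted p = 1.47e-08). Chgb, another granule protein, rose by 0.95 ± 0.10 in females and 1.23 ± 0.10 in males, and Stx1a, a vesicle fusion protein, by 1.13 ± 0.11 and 0.96 ± 0.11. Snap25, a fusion protein of mature synapses, stayed between 9.38 and 16.2 on all 12 arrays.

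Lists of neural precursors were counted in the same comparisons. Of 21 neural progenitor genes, 13 were lower and 0 higher in males at 10.5 dpc (22.8% and 17.5% of all genes). Over time in females 11 fell and 2 rose (27% and 22.4% of all genes). Sox2, a factor of neural stem cells and of the early germ line, was lower in males at 10.5 dpc by -3.24 ± 0.07 (adjusted p = 1.59e-09), with means of 1930, 204, 124 and 95.7 in the 4 groups. Fabp7, a fatty acid binding protein of radial glia, was lower by -1.55 ± 0.09 and Hes6 by -1.56 ± 0.12. Irx3, on the same list, rose over time by 2.80 ± 0.14 in females and 2.51 ± 0.14 in males. Of 12 neural crest and glia genes, 6 were lower and 0 higher in males at 10.5 dpc (22.8% and 17.5% of all genes). Ets1 was lower by -1.60 ± 0.04 and Erbb3 by -0.91 ± 0.16. Sox10, the defining factor of the crest, read 43.5 to 88.1 over all arrays.

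Of 11 floor plate and motor neuron genes, 3 were lower and 1 higher in males at 10.5 dpc, and Shh, the signal of the floor plate, was lower by -2.19 ± 0.39 (adjusted p = 0.00116) and fell by 4.28 ± 0.39 in females (adjusted p = 5.21e-06). Of 12 genes of the Zic family and dorsal neural tube, 1 was lower and 0 were higher in males at 10.5 dpc. In 9 autonomic and chromaffin genes the counts were 2 lower and 1 higher, in 9 hypothalamus and pituitary genes 2 lower and 0 higher, and in 9 adrenal cortex genes 3 lower and 3 higher. With 22.8% of all genes called lower, the counts of the autonomic, hypothalamic and floor plate lists were near the share over all genes. The REST complex represses neuronal genes outside neurons. Of 9 genes of this complex, 6 were higher and 2 lower in males at 10.5 dpc (17.5% and 22.8% of all genes). Its corepressor gene Rcor1 was higher by 1.09 ± 0.04 (adjusted p = 2.27e-08), and its deacetylase gene Hdac2 was lower by -0.85 ± 0.06 (adjusted p = 1.9e-06). Over time 4 of these 9 genes rose and 4 fell in females, and 3 rose and 4 fell in males. In males Rest itself rose by 0.98 ± 0.05 over time (adjusted p = 6.6e-08). Kdm1a and Hdac2 of the same list fell in males, with changes of -1.29 ± 0.05 and -0.97 ± 0.06. The means of Rest were 1010 and 1500 in females and males at 10.5 dpc, and 1550 and 2960 at 11.5 dpc. A part of this complex in the differences of the neuronal genes was not tested.

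**Figure D5:**
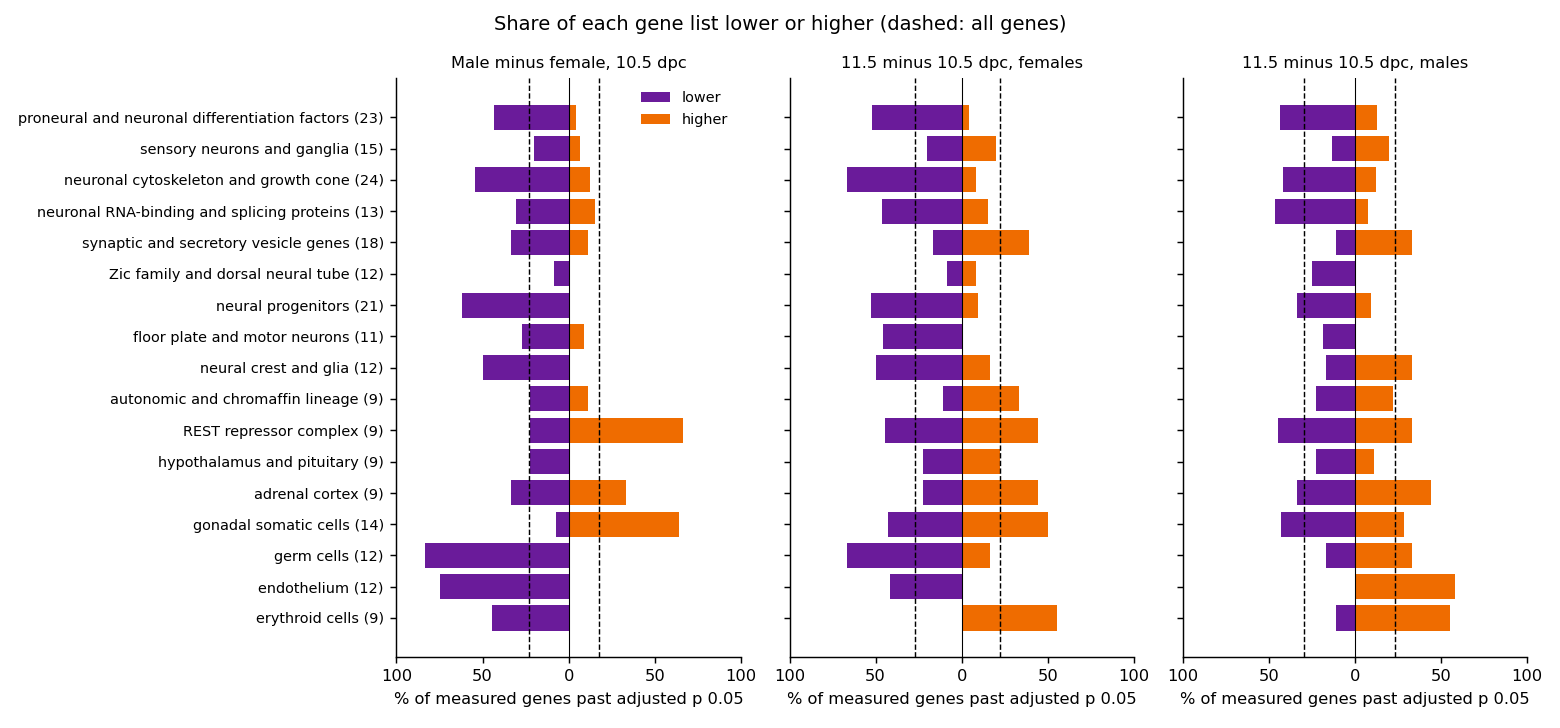
Percentage of the measured genes of each list (number in brackets) that passed an adjusted p of 0.05 as lower (left of 0) or higher (right of 0), for male minus female at 10.5 dpc and for 11.5 minus 10.5 dpc in each sex; dashed lines give the same percentage over all 18193 genes. Neural progenitors, germ cells and endothelium reach 13 of 21, 10 of 12 and 9 of 12 genes lower in males at 10.5 dpc, against 22.8% of all genes.

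Markers of other cell types also differed between the sexes at 10.5 dpc, where 22.8% of all genes were called lower and 17.5% higher in males. Of 12 germ cell genes 10 were lower and 0 higher in males, and their summed intensity was 4227 to 4360 in females and 1268 to 1322 in males. Of 12 endothelial genes 9 were lower and 0 higher, with sums of 1884 to 1987 in females and 773 to 891 in males. Of 9 erythroid genes 4 were lower and 0 higher, with sums of 6296 to 6771 and 1221 to 1345. Of 14 genes of gonadal somatic cells 9 were higher and 1 lower in males, with sums of 24980 to 25410 and 31450 to 32170. Nr5a1, the gene whose promoter drives the sorted marker, read 373 to 382 in females and 599 to 641 in males at 10.5 dpc, and 519 to 594 and 721 to 769 at 11.5 dpc. No marker can read 0 in such a table, whose lowest value on any array lay between 1.535 and 1.567.

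Over time in females 8 of the 12 germ cell genes were lower and 2 higher, and 5 of the 12 endothelial genes were lower and 0 higher, while 5 of the 9 erythroid genes were higher and 0 lower. Over all genes 27% were lower and 22.4% higher in females. In males over time the counts of the same lists were 2 lower and 4 higher, 0 lower and 7 higher, and 1 lower and 5 higher. The shares over all genes were 29.7% lower and 23.3% higher in males. Germ cell sums were 2754 to 2828 in females and 1911 to 1955 in males at 11.5 dpc, endothelial sums 1648 to 1724 and 1677 to 1760, and erythroid sums 15360 to 15670 and 6271 to 6647. Neural progenitor sums were 5733 to 5990 and 2890 to 2963 at 10.5 dpc and 4105 to 4286 and 2510 to 2638 at 11.5 dpc, in females and males. Sums add intensities of different probe sets and lean on the brightest.

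Signs of RNA quality also differed between groups. The 3′/5′ ratio of the actin controls was 5.32 ± 0.12 (SD over 3 arrays) in females against 9.90 ± 0.02 in males at 10.5 dpc, and 9.97 ± 0.12 and 7.59 ± 0.16 at 11.5 dpc. For Gapdh it was 2.70 ± 0.10, 4.65 ± 0.11, 3.88 ± 0.06 and 4.19 ± 0.01. Females at 10.5 dpc had the lowest ratio for both controls. The part of the cell type markers and of these ratios in the differences of the 8 genes was not tested. Y-linked genes followed the labelled sexes, with Uty at 6.82 to 10.1 in females and 366 to 832 in males, and Eif2s3y read 60.4 to 68.4 in females at 11.5 dpc against 7.45 to 12.5 in females at 10.5 dpc. Within a group, the correlation of arrays over all probe sets lay between 0.9981 and 0.9988.

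The 8 genes were close to each other in their profiles over the 12 arrays, which mostly reflect the 4 group means. Pearson's r between their brightest probe sets ran from 0.8669 (Elavl3 and Stmn2) to 0.9970 (Neurod1 and Pou4f1). Neurod1, Pou4f1 and Elavl4 were closest among themselves, with r of 0.9842 between Neurod1 and Elavl4. Tubb3, Hmx1 and Stmn2 formed a second close set, with 0.9890 between Tubb3 and Hmx1 and 0.9853 between Tubb3 and Stmn2. These values share the arrays and the group structure, are descriptions, and carry no p.

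Among 9769 genes with a group mean of at least 100, 451 (4.617%) had r above 0.95 with the mean profile of the 8 genes. The 15 with the highest r ran from 0.9986 to 0.9917. They were Khdrbs1, Nhlh2, Pcmtd2, Ppil1, Mreg, Ccp110, Cdca3, Tex30, Casd1, Atl1, Tardbp, Rbm7, Rab18, Lin7c and Rbm48. A high r does not require a large fold. Khdrbs1, an RNA-binding protein, averaged 6220 ± 99.1 (SD) in females against 3867 ± 115 in males at 10.5 dpc, then 2581 ± 22.7 and 2708 ± 58.9 a day later. Mreg had 1160, 200, 70.2 and 73.6 in the same groups. The choice of measure set these names. With Spearman's correlation 0 of the 15 stayed among the first 15 and 2 among the first 100, whereas 10 stayed among the first 15 when only Stmn2, Elavl3 and Elavl4 were averaged.

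Single members had neighbours of their own. Isl1 and Nefm were among the 3 most alike genes for both Tubb3 (0.9954 and 0.9951) and Hmx1 (0.9924 and 0.9913), and Nefm was also among the 3 for Stmn2 (0.9899). For Pou4f1 the second was Neurod1 itself (0.9970), after Nars (0.9979). The gene most like Neurod1 was Mat2b (0.9984), that for Zic1 Vti1b (0.9865), that for Elavl4 Mtcp1 (0.9953), and that for Elavl3 2500002B13Rik, at a lower r of 0.9658.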

How the data were processed

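RNA from 12 sorted samples was read on arrays. The deposited values are intensities on a linear scale, made by the authors with RMA, as the submitters' processing notes name it without a version. How RMA values, commonly log2, became linear is not stated there. The 64 control probe sets were left out. Values were turned into log2(value + 1), which understates changes of dim probe sets, and 1 mean per group was fitted to all 12 arrays with limma 3.58.1 in R 4.3.3 (lmFit, eBayes). p-values were adjusted by Benjamini-Hochberg over all 45037 probe sets within each contrast, with a threshold of 0.05. The scripts were tested on simulated data.

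Of these probe sets, 34945 carried 1 gene symbol in the platform annotation, 932 several and 9160 none. A gene outside the 8 was represented by its brightest probe set that names it alone. From each list at most 4 genes past the threshold with a group mean of at least 100 and the largest change were eligible to be named; other genes were named as markers or relatives. The members and lists were chosen with earlier results of these data known. Array number limits the precision. Alternatives covered pseudocount, centring, dim filter, samples fitted, replicate block, variance prior and each array left out.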

Additional observations from a re-analysis of the deposited data

Results flagged for a closer look

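By limma's interaction test the change from 10.5 to 11.5 dpc differed between males and females in 6 of the 8 tested probe sets. Over all probe sets, 14.6% were called in the direction of these 6 and 13.4% in the other. The difference, male minus female change on the log2 scale, was 3.07 and 3.13 for Stmn2 1423280_at and 1423281_at. For Elavl4 it was 1.69 in 1428741_at, 1.10 in 1450258_a_at and 2.50 in 1452894_at. For Elavl3 it was 2.67 in 1455484_at. All 6 fell in females, and in males Stmn2 1423281_at and Elavl3 1455484_at, already low at 10.5 dpc, did not pass. The sexes were close at 11.5 dpc, so these values largely restate the sex difference at 10.5 dpc and are not independent of it.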

How the results depend on the processing

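The total counts of probe sets past the threshold stayed within 1.5 times of their value under every alternative run. Counts by direction did not: with each array centred on its median, the lower calls over time went from 9352 to 17721 in females and from 11939 to 22038 in males. With each array left out in turn they ran from 14211 to 15285 for the sex difference at 10.5 dpc, from 13841 to 15507 for that at 11.5 dpc, from 17719 to 18753 for the age change in females, from 18027 to 21876 for that in males, and from 11518 to 12475 for the difference of age changes. No called value changed sign under any of them. Of the other values, 48 moved. Of these, 37 were differences of the 5 genes chosen by level, which moved by more than the spread of the arrays. The rest were counts of list genes, which moved by more than 1.5 times, and the list of genes most like the members. Of the genes named there, 0 stayed among the first 15 with Spearman's correlation. With the mean of a gene's probe sets in place of its brightest, the called genes of the Zic and dorsal list went from 1 to 3 for the sex difference at 10.5 dpc, from 2 to 4 and from 3 to 5 for the age changes in females and males, and from 1 to 3 for the difference of age changes. Those of the RNA-binding list went from 6 to 3 and from 2 to 5 for the sex differences at 10.5 and 11.5 dpc. At 11.5 dpc the proneural list went from 6 to 2, the sensory list from 4 to 2 and the endothelial list from 1 to 2, and the sensory list went from 3 to 1 for the difference of age changes. Besides the changes given with the results, Stmn2 1423281_at passed as higher in males at 11.5 dpc when only those 2 groups were fitted (adjusted p = 0.0132), and the flat Elavl3 probe set 1452524_a_at passed over time with median centring in females (adjusted p = 0.00488) and males (adjusted p = 0.0292). The Elavl3 1435871_at difference of age changes passed with the filter on dim probe sets (adjusted p = 0.0268) and with another variance prior (adjusted p = 0.0399).

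The labels give the groups the same replicate numbers, but same-numbered arrays did not deviate together, with r from -0.14 to 0.08 over 18 pairs and 0 of them above 0.1. With the replicate block the counts were 15076 and 15174 for the sex differences at 10.5 and 11.5 dpc, 18568 and 20174 for the age changes in females and males, and 12184 for the difference of age changes. Among the 16 probe sets the replicate block changed 1 call, that of Elavl3 1435871_at for the difference of age changes (adjusted p = 0.0341).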
